A study of Homo sapiens with 36 samples.

Results

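The thick filament and titin genes are a set of 10 human genes, taken as the rows of the deposited gene counts whose symbol is MYH6, MYH7, MYL2, MYL3, MYL4, MYL7, MYBPC3, TTN, MYOM1 or UNC45B. All 10 were found among 58721 genes, and 9 passed the filter on low counts that left 19772 genes for testing. MYL2 did not pass it. The libraries come from the human embryonic stem cell line H1, as PERK KO or wild type, at days 0, 1, 2, 3, 5 and 10 of differentiation toward cardiomyocytes, with 3 libraries in each of the 12 groups. PERK is the kinase encoded by EIF2AK3 that slows translation when the endoplasmic reticulum is stressed. Both genotypes were grown in E8 medium and received the same agents: Y-27632 when plated, the WNT activator CHIR99021 at the start, the WNT inhibitor IWP2 after it, heparin, and insulin in the last stage. How PERK was knocked out, and how many clones were used, is not given in the sources used here. The series' design text names other collection days than the sample labels, and the labels were followed.

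The thick filament of the sarcomere is a bundle of myosin molecules. Each myosin has a pair of heavy chains, the motors, and each heavy chain carries an essential and a regulatory light chain on its neck. In the human heart MYH6, MYL4 and MYL7 encode the heavy, essential light and regulatory light chains typical of the atria and of the embryonic heart, while MYH7, MYL3 and MYL2 encode those of the mature ventricle. MYBPC3 encodes cardiac myosin-binding protein C, which holds and regulates the myosin heads. TTN encodes titin, the giant spring that runs from the Z-disc to the M-band, where myomesin, from MYOM1, cross-links the filaments. UNC45B encodes a chaperone that folds striated muscle myosin.

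The libraries held 14002137 to 25860481 counts. Levels are CPM, counts scaled to a common library size by TMM, and differences are log2 fold changes with an approximate standard error (SE) from edgeR's quasi-likelihood test, called at a Benjamini-Hochberg (BH) adjusted p under 0.05 over all genes tested. Nothing states that replicates were separate cultures, so p-values measure only the spread between these libraries. EIF2AK3 was counted at 10.1 to 28.1 CPM and was not called between genotypes at any day (lowest edgeR BH adjusted p = 0.127), so its level does not check the knockout labels. PERK KO day 0 replicate 2 stood apart by its short transcripts, with a mean transcript length of 2028 nt, and wild-type day 2 replicate 3 also differed from its group. In bulk RNA, fewer cells of a type and less RNA per cell cannot be told apart.

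MYH6 and MYH7 lie next to each other on the minus strand of chromosome 14 in GRCh38, MYH6 at 23381990 to 23408277 and MYH7 at 23412738 to 23435718, with 4460 bases between them. TTN spans 304814 bases of chromosome 2 (178525989 to 178830802, minus strand), and MYL7 spans 2469 bases of chromosome 7 (44138864 to 44141332, minus strand). RefSeq (GRCh38.p14) gave promoters for 6 of the 10 members: MYH6, MYL3, MYL7, MYBPC3, TTN and MYOM1. It gave none for MYH7, MYL2, MYL4 and UNC45B. The 250 bases before the start site are shown for 4 of the 6 members with a promoter, to set their motif matches side by side. They are MYH6 (chr14:23408274-23408523), MYL7 (chr7:44141333-44141582), MYBPC3 (chr11:47352703-47352952) and TTN (chr2:178807424-178807673), each on the minus strand and written 5′ to 3′ toward the gene. Capitals mark matches on either strand to a MEF2 site, a CArG box (the site of SRF), the TATA box as TATAAA, the core bound by GATA factors as GATAA, or the core bound by TEAD factors as CATTCC.
MYH6: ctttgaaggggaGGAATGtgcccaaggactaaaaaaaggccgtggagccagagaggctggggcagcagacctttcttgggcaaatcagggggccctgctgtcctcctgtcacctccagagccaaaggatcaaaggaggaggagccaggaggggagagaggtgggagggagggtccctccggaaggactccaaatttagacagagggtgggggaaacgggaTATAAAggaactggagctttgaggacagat
MYL7: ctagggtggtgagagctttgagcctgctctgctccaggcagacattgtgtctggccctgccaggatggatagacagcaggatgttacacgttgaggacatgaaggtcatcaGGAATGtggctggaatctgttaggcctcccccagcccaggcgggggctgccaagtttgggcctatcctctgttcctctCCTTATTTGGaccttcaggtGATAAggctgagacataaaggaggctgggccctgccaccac
MYBPC3: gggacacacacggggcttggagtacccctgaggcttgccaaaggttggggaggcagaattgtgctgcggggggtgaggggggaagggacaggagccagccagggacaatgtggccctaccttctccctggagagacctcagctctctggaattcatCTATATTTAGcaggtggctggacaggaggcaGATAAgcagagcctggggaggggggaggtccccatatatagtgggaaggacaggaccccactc
TTN: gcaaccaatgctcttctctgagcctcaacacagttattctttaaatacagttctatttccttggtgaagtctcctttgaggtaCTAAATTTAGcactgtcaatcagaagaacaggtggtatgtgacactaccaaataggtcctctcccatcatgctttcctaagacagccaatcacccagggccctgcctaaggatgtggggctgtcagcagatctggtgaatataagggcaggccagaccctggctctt
Positions are counted back from the start site. MYH6 held a TATAAA at -30 to -25 and a CATTCC, on the other strand, at -238 to -233. MYL7 held a CArG box at -61 to -52, a GATAA at -41 to -37 and a CATTCC, on the other strand, at -139 to -134. A CANNTG E-box, searched too but not capitalised, overlapped that GATAA by its last base, at -46 to -41. MYBPC3 held a MEF2 site at -94 to -85 and a GATAA at -63 to -59, and TTN held a MEF2 site at -167 to -158. Each also held an E-box, MYBPC3 at -84 to -79 and TTN at -139 to -134. MYOM1, whose promoter is not printed, held a CArG box at -32 to -23, an E-box at -63 to -58 and 3 GATAA matches, the nearest at -48 to -44. MYL3, with 2 start sites and also not printed, held a GATAA at -84 to -80 of the second. Among 35116 promoter windows of the same length, a MEF2 site was found in 2.8%, a CArG box in 1.16%, TATAAA in 10.7%, GATAA in 20.4%, CATTCC in 11.9% and CANNTG in 61.8%. A match is a description of letters and was not tested for binding.

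From day 3 onward the members were nearly all lower in PERK KO cells than in wild type. At day 3, 8 of the 9 tested members were lower and 0 higher, where 23.2% of all genes tested were called lower and 21.9% higher. At day 5 all 9 were lower and 0 higher, where 30.5% and 28.6% of all genes were. At day 10 all 9 were lower and 0 higher, where 34% and 33.3% were. The median log2 fold change of the 9 members was -4.25 at day 3, -7.21 at day 5 and -4.03 at day 10, where that of all genes was -0.03, -0.02 and 0. The PERK KO and wild-type libraries did not overlap for any of the 9 members on these days. The share of all genes tested without overlap was not counted, so this has no background beside it. In PERK KO all 9 were above day 0 by day 10, and in wild type all 9 were by day 5.

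**Figure D1:**
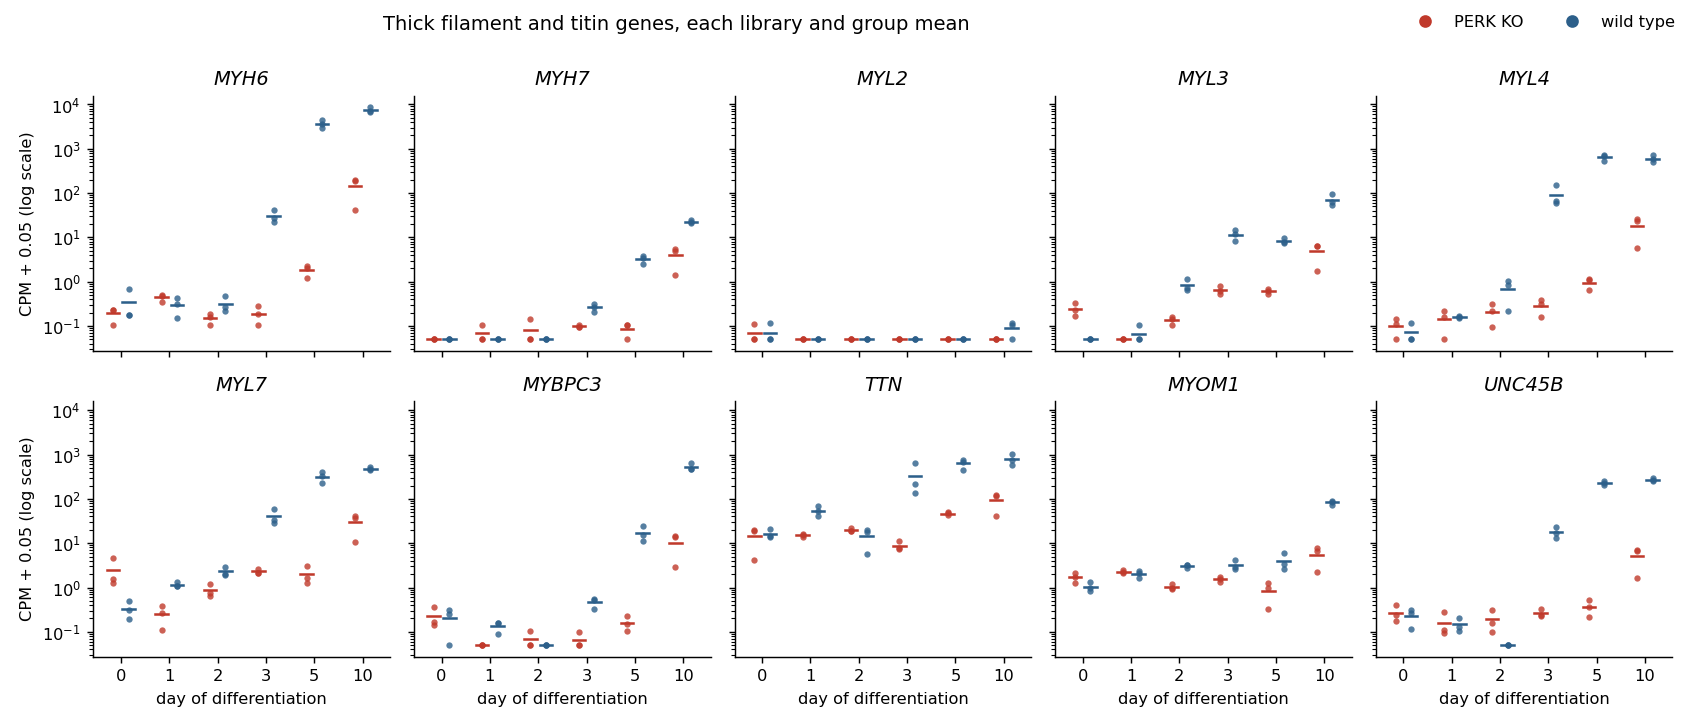
CPM plus 0.05 on a log scale against day of differentiation for each of the 10 members. Each point is 1 library and each bar the mean of 3, with PERK KO in red on the left and wild type in blue on the right of each day. MYH6 reaches 145 CPM in PERK KO at day 10 and 7536 CPM in wild type, and MYL2 stays at the bottom in both.

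Both cardiac myosin heavy chains were lower in PERK KO cells, MYH6 by far the more. At day 3 MYH6 had 0.235, 0.133 and 0.0561 CPM in PERK KO libraries, against 27.6, 21.7 and 42.6 CPM in wild-type libraries. At day 5 it had 2.18, 2.00 and 1.18 CPM in PERK KO, against 3643, 2939 and 4468 CPM in wild type. The day 5 libraries of the genotypes were thus apart by more than 3 orders of magnitude, with a log2 fold change of -11.01 ± 0.51 (SE, edgeR BH adjusted p = 1.19e-17). At day 10 MYH6 had 191, 42.6 and 201 CPM in PERK KO, against 6793, 7147 and 8669 CPM in wild type. PERK KO replicate 2 was the low library of its group, and the mean of the 3 was 1.92% of the wild-type mean (log2 fold change -5.70 ± 0.39, edgeR BH adjusted p = 1.34e-13).

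MYH7, the slow heavy chain of the adult ventricle, was a minor transcript in both genotypes. It had no counts in any wild-type library at days 0, 1 and 2. At day 5 it had 0.0575, 0.0540 and 0 CPM in PERK KO, which is 2 counts in all, against 3.36, 2.43 and 3.84 CPM in wild type. The ratio of wild type over PERK KO was 90.2, with a 95% counting interval of 24.6 to 750 (edgeR BH adjusted p = 3.77e-08). At day 10 MYH7 had 4.93, 1.35 and 5.52 CPM in PERK KO, against 21.7, 20.8 and 24.3 CPM in wild type. The PERK KO mean was 17.6% of the wild-type mean, the highest such percentage among the 9 tested members at day 10 (log2 fold change -2.49 ± 0.35, edgeR BH adjusted p = 1.39e-06). At day 3 MYH7 was the 1 tested member not called, on 3 counts in PERK KO and 13 in wild type (edgeR BH adjusted p = 0.084). The ratio of wild type over PERK KO was then 4.50, with a 95% counting interval of 1.24 to 24.6. The MYH7 transcript MYH7-201 shares 4.14% of its 150-nt words with MYH6, and an antisense gene, AL132855.1, overlaps it, so a part of its low counts is uncertain.

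Of the light chains, MYL4 differed most on each of the 3 days, and MYL7 and MYL3 were close at days 3 and 10 but not at day 5. MYL7, the atrial regulatory light chain, had 1.61, 3.03 and 1.23 CPM in PERK KO at day 5, against 320.2, 229 and 393 CPM in wild type (log2 fold change -7.33 ± 0.47, edgeR BH adjusted p = 2.83e-14). At day 10 it had 36.4, 10.8 and 40.6 CPM in PERK KO, against 447, 483 and 511 CPM in wild type (log2 fold change -4.03 ± 0.39, edgeR BH adjusted p = 2.2e-10). The wild-type libraries of MYL7 lay close together at day 10, and the spread was in PERK KO. MYL4, the atrial essential light chain, had 1.09, 1.03 and 0.613 CPM in PERK KO at day 5, against 719, 519 and 700.2 CPM in wild type (log2 fold change -9.47 ± 0.53, edgeR BH adjusted p = 8.67e-16). At day 10 MYL4 had 26.1, 5.85 and 23.5 CPM in PERK KO, against 495, 574 and 738 CPM in wild type (log2 fold change -5.02 ± 0.41, edgeR BH adjusted p = 5.5e-12). At day 3 the log2 fold change of MYL4, -8.53 ± 0.56, was the largest of the members, and that of MYL7 was -4.18 ± 0.42.

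MYL3, the essential light chain of the ventricle, was apart by a nearly constant amount. At day 3 it had 0.471, 0.754 and 0.561 CPM in PERK KO, against 8.42, 11.9 and 14.4 CPM in wild type. At day 10 it had 6.45, 1.66 and 6.29 CPM in PERK KO, against 54.9, 64.5 and 93.8 CPM in wild type. The log2 fold changes were -4.25 ± 0.39 at day 3, -3.87 ± 0.40 at day 5 and -3.88 ± 0.32 at day 10 (edgeR BH adjusted p = 4.22e-10, 3.73e-09 and 5.62e-11). MYL3 overlaps the gene PTH1R on the opposite strand, and whether counting used strand is not given in the sources used here. MYL2, the regulatory light chain of the ventricle, was hardly detected. It had 0 counts over the 3 PERK KO libraries at day 10, which allows up to 0.0487 CPM by counting error, against 2 counts over the 3 wild-type libraries, and at most 1 count in any library of the series.

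MYBPC3 came on late in wild type and was among the lowest members in PERK KO, relative to wild type, at day 10. At day 5 it had 0.172, 0.0540 and 0.102 CPM in PERK KO, against 15.2, 11.1 and 24.4 CPM in wild type (log2 fold change -7.21 ± 0.61, edgeR BH adjusted p = 8.86e-11). At day 10 it had 14.3, 2.80 and 13.6 CPM in PERK KO, against 464, 479 and 654 CPM in wild type (log2 fold change -5.70 ± 0.41, edgeR BH adjusted p = 2.71e-12). Its PERK KO mean at day 10 was 1.92% of the wild-type mean, the same percentage as for MYH6, the motor its protein binds. The call at day 3 rested on 1 count in PERK KO and 24 in wild type, a ratio of wild type over PERK KO of 24.9 with a 95% counting interval of 4.06 to 1025 (edgeR BH adjusted p = 0.0119). Without PERK KO day 3 replicate 1, which held that count, the other PERK KO libraries had 0 counts and the gene was still called (adjusted p = 0.0204). It was not tested with the libraries of day 3 alone.

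UNC45B, the myosin chaperone, had differences of the same order as MYH6. At day 3 it had 0.188, 0.177 and 0.280 CPM in PERK KO, against 16.7, 12.8 and 23.2 CPM in wild type (log2 fold change -6.33 ± 0.45, edgeR BH adjusted p = 1.11e-12). Day 5 libraries had 0.460, 0.162 and 0.307 CPM in PERK KO, against 234, 207 and 249.6 CPM in wild type (log2 fold change -9.52 ± 0.45, edgeR BH adjusted p = 9.66e-17). At day 10 it had 6.82, 1.61 and 6.68 CPM in PERK KO, against 252, 263 and 301 CPM in wild type. The PERK KO mean at day 10 was 1.85% of the wild-type mean, the lowest percentage of the 9 tested members (log2 fold change -5.75 ± 0.34, edgeR BH adjusted p = 1.77e-14).

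MYOM1, the M-band cross-linker, differed least of the called members at days 3 and 5, and by more at day 10. At day 3 it had 1.69, 1.29 and 1.51 CPM in PERK KO, against 2.84, 4.14 and 2.52 CPM in wild type. Day 5 libraries had 1.21, 0.270 and 0.920 CPM in PERK KO, against 3.36, 2.54 and 6.02 CPM in wild type. At day 10 it had 7.65, 2.18 and 6.64 CPM in PERK KO, against 91.2, 71.8 and 85.2 CPM in wild type. The log2 fold changes were -1.08 ± 0.36, -2.33 ± 0.39 and -3.91 ± 0.32 at days 3, 5 and 10 (edgeR BH adjusted p = 0.0144, 7.83e-06 and 8.89e-12). The day 3 call ended without wild-type replicate 2 (-0.84, adjusted p = 0.0937), without PERK KO replicate 2 (-0.98, adjusted p = 0.0615) and with a transcript length offset (-1.07, adjusted p = 0.101), all by edgeR with BH adjustment.

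TTN, the titin gene, differed least at day 5 of the sarcomere members except MYOM1, and it was already present at day 0. At day 0 it had 19.7, 4.13 and 19.0 CPM in PERK KO, against 21.0, 13.5 and 14.6 CPM in wild type, and the groups overlapped. With a transcript length offset TTN was called lower in PERK KO at day 0 (log2 fold change -1.59, edgeR BH adjusted p = 0.0343). At day 5 it had 47.2, 42.8 and 49.7 CPM in PERK KO, against 762, 689 and 439 CPM in wild type (log2 fold change -3.76 ± 0.51, edgeR BH adjusted p = 2.1e-07). At day 10 it had 116, 41.4 and 122 CPM in PERK KO, against 1023, 738 and 594 CPM in wild type (log2 fold change -3.08 ± 0.49, edgeR BH adjusted p = 2.7e-06). At day 3 it had 11.1, 7.58 and 7.18 CPM in PERK KO, against 658, 212 and 133 CPM in wild type, whose libraries were widely spread. Without wild-type day 3 replicate 1 the log2 fold change at day 3 was -4.32, where all libraries gave -5.28 ± 0.55, and both were called.

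The TTN transcripts that RSEM assigned differed in length between the genotypes at day 10. Their abundance-weighted length was 42843, 54029 and 51625.5 nt in PERK KO, against 19122, 7975 and 17644 nt in wild type. The groups did not overlap, and wild-type libraries were long at day 5, at 59716, 58302 and 41019 nt. Levels per length depend on this, with 4.17, 1.17 and 3.73 TPM, a level per transcript length, in PERK KO at day 10, against 76.1, 113 and 38.8 TPM in wild type. TTN-AS1, the antisense gene that overlaps TTN, was at 11.7, 9.84 and 11.8 CPM in PERK KO at day 10, against 12.01, 6.14 and 5.98 CPM in wild type. Whether counting used strand is not given in the sources used here, and without it reads of the pair cannot be told apart.

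In wild type the members rose above day 0 in steps. MYL7, MYOM1 and TTN were first called higher at day 1, when 3 of 9 members were higher and 20.9% of all genes were. MYL3 and MYL4, the essential light chains, were first called at day 2 (4 of 9 higher, against 25.4% of all genes), when UNC45B was lower (1 of 9, against 25.1%). MYH6, MYH7 and UNC45B followed at day 3 (8 of 9 higher and 0 lower, against 29.3% and 27.5% of all genes) and MYBPC3 at day 5 (9 of 9, against 31.4%). TTN was not called at day 2, at 17.6, 19.4 and 5.51 CPM, after 41.6, 54.4 and 67.3 CPM at day 1. The day 2 call of UNC45B held in 1 of 6 fits that left out 1 library each. The day 1 calls of MYL7 and MYOM1 held in 2 of 6 such fits, and that of TTN held in 6 of 6. Per transcript length, however, wild-type TTN averaged 1.57 TPM at day 0 and 1.44 TPM at day 1, and the libraries overlapped. The abundance-weighted length of its transcripts was 9082 to 27903 nt at day 0 and 41508 to 59267 nt at day 1. With a transcript length offset 1 of the 9 members was called higher at day 1.

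In PERK KO the members were called higher at later days. At day 1 MYL3 and MYL7 were lower than at day 0 (2 of 9 lower and 0 higher, where 25.1% and 18% of all genes were), and at day 2 MYL7 was (1 of 9 lower and 0 higher, where 23.8% and 17.5% were). The MYL3 call at day 1 ended without PERK KO day 0 replicate 2 (edgeR BH adjusted p = 0.0703) or PERK KO day 1 replicate 3 (adjusted p = 0.0586). The MYL7 call at day 2 ended without PERK KO day 0 replicate 2 (edgeR BH adjusted p = 0.356), PERK KO day 2 replicate 1 (adjusted p = 0.0836) or PERK KO day 2 replicate 3 (adjusted p = 0.0753). At day 3 MYL3 alone was called higher than at day 0 (1 of 9 higher and 0 lower, where 18.5% and 21.8% of all genes were), and that call ended in 5 of the 6 fits without 1 library. MYH6, MYL4 and TTN were called higher at day 5 (3 of 9, against 21.5%), and MYOM1 was lower (1 of 9, against 27.3%; log2 fold change -1.07, edgeR BH adjusted p = 0.0431), a call that held in 2 of 6 fits without 1 library. MYL7, MYH7, MYBPC3, MYOM1 and UNC45B were first called at day 10, when 9 of 9 members were higher than at day 0 and 0 lower, where 29.9% and 31.9% of all genes were. The comparisons of 1 genotype share its day 0 libraries.

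Between days 5 and 10 both heavy chains, MYL3, MYBPC3 and MYOM1 rose in wild type, while the atrial light chains, UNC45B and TTN did not pass the test. In wild type 5 of 9 members were higher at day 10 than at day 5, where 24.1% of all genes were. They were MYBPC3 (log2 fold change 4.97 ± 0.39), MYOM1 (4.36 ± 0.33), MYL3 (3.10 ± 0.31), MYH7 (2.79 ± 0.35) and MYH6 (1.03 ± 0.32). The call of MYH6 ended without wild-type day 5 replicate 2 (0.89, edgeR BH adjusted p = 0.054). MYL7, UNC45B, TTN and MYL4 had log2 fold changes of 0.61, 0.24, 0.32 and -0.10. For TTN the level per transcript length differed from this. It was 14.6, 15.7 and 13.6 TPM in wild type at day 5 and 76.1, 113 and 38.8 TPM at day 10, without overlap. The abundance-weighted length of its transcripts was shorter at day 10, as given above. In PERK KO 8 of 9 were higher at day 10 than at day 5, where 24% of all genes were, by 2.78 (MYOM1) to 6.48 (MYBPC3) on the log2 scale over 7 of them. For MYH7, on 2 counts at day 5, the ratio of day 10 over day 5 was 112 with a 95% counting interval of 30.6 to 928. TTN in PERK KO did not pass (1.00 ± 0.46, edgeR BH adjusted p = 0.0785), but did without PERK KO day 10 replicate 2 (1.35, adjusted p = 0.0244).

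The difference between genotypes therefore changed from day 5 to day 10, and not in 1 direction for all members. A test of that change called 5 of 9 members higher, meaning a smaller deficit in PERK KO at day 10, where 20.3% of all genes were called higher. They were MYH6 (5.31 ± 0.52), MYL4 (4.45 ± 0.58), UNC45B (3.77 ± 0.55), MYH7 (3.74 ± 0.88) and MYL7 (3.29 ± 0.54), with edgeR BH adjusted p between 1.29e-09 for MYH6 and 0.00165 for MYH7, which had 2 counts in PERK KO at day 5. MYOM1 was the 1 member called lower (-1.58 ± 0.52, adjusted p = 0.0153, where 18.3% of all genes were), so its deficit was larger at day 10. MYL3, MYBPC3 and TTN were not called (-0.01, 1.51 and 0.68). From day 0 to day 10 the rise was smaller in PERK KO for 7 of 9 members and larger for 0, where 29.4% and 26.3% of all genes were called lower and higher. The call of MYOM1 ended without PERK KO day 5 replicate 1 (-1.18, adjusted p = 0.127) and without PERK KO day 5 replicate 3 (-1.46, adjusted p = 0.0586), and MYBPC3 was called without PERK KO day 10 replicate 2 (1.96, adjusted p = 0.0163), all by edgeR.

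**Figure D2:**
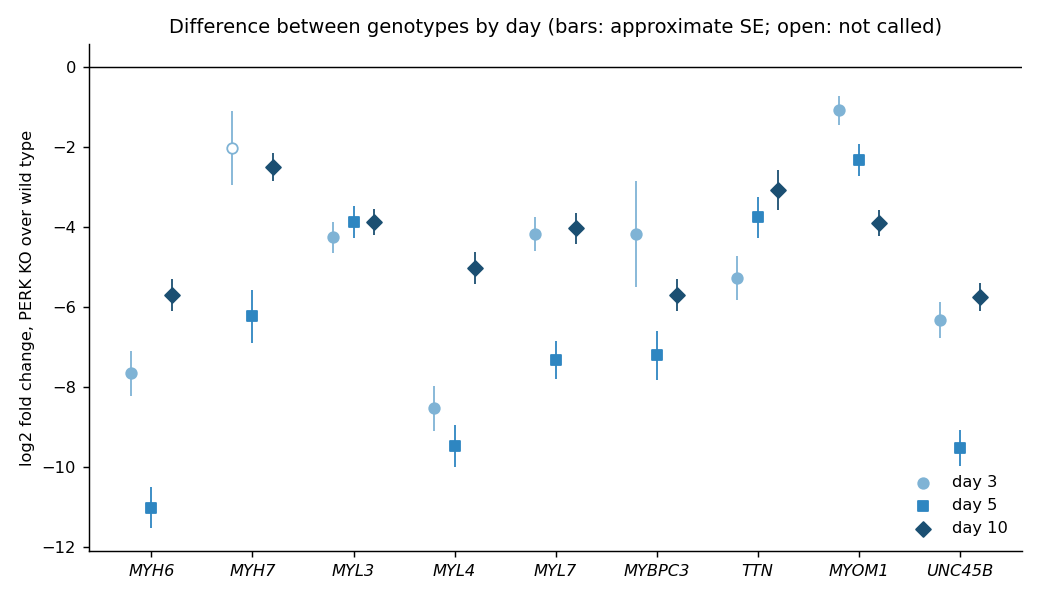
Log2 fold change of PERK KO over wild type for the 9 tested members at days 3, 5 and 10, with bars of 1 approximate SE; open symbols did not pass the test. MYH6 lies at -7.65, -11.01 and -5.70, and MYOM1 at -1.08, -2.33 and -3.91.

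PERK KO day 10 replicate 2 was low in every member detected. Its level was 20.1% to 34.9% of the mean of replicates 1 and 3 over the 9 members, lowest in MYBPC3 and highest in TTN. Over 7 cardiomyocyte markers outside the set it was 20.9% to 41.4%. Over 11831 genes of at least 5 CPM in each library of the group its median was 101%. TMM scaling and that minimum largely fix such a median in advance, so it does not tell whether other genes were as low. The share of genes as low as the members was not counted. The members' fold changes at day 10 were called in 6 of 6 fits that left out 1 library.

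Within wild type the regulatory light chain MYL7 was the most abundant member per length at day 10. It had 1942 ± 84.5 TPM (SD, n = 3), above MYH6 at 1742 ± 108 and MYL4 at 1342 ± 165. MYBPC3 (165 ± 22.6) and MYL3 (153 ± 27.2) overlapped, as did TTN (75.8 ± 37.0) and UNC45B (68.4 ± 4.52). MYOM1 (20.2 ± 4.09), MYH7 (4.73 ± 0.51) and MYL2 (0.107 ± 0.0929) stood below them. In PERK KO at day 10 the order began with MYL7 at 140.1 TPM, MYL4 at 49.7 and MYH6 at 40.6, and ended with MYOM1 at 2.00, UNC45B at 1.56, MYH7 at 1.05 and MYL2 at 0 in each library. MYL4 and MYH6 thus changed places, but their PERK KO ranges of 15.3 to 69.6 and 11.8 to 57.0 TPM overlapped.

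The make-up of the set differed as well as its size. The members summed to 325, 87.3 and 347 TPM in PERK KO at day 10, against 5548, 5227 and 5763 TPM in wild type. MYH6 made 16.3%, 13.5% and 16.4% of that sum in PERK KO, against 32.1%, 31.0% and 31.7% in wild type. MYL7 made 53.2%, 59.4% and 56.4% in PERK KO, against 36.8%, 36.1% and 33.0% in wild type. Replicate 2 of PERK KO, low in total, had a make-up near that of the other 2. In wild type MYH6 made 1.72% of a mean sum of 445 TPM at day 3 and 22.9% of 3598 TPM at day 5. In PERK KO at day 10 its mean share was 15.4% of 253 TPM, a larger share of a smaller sum than in wild type at day 3. These shares are levels per length and carry no test of their own.

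**Figure D3:**
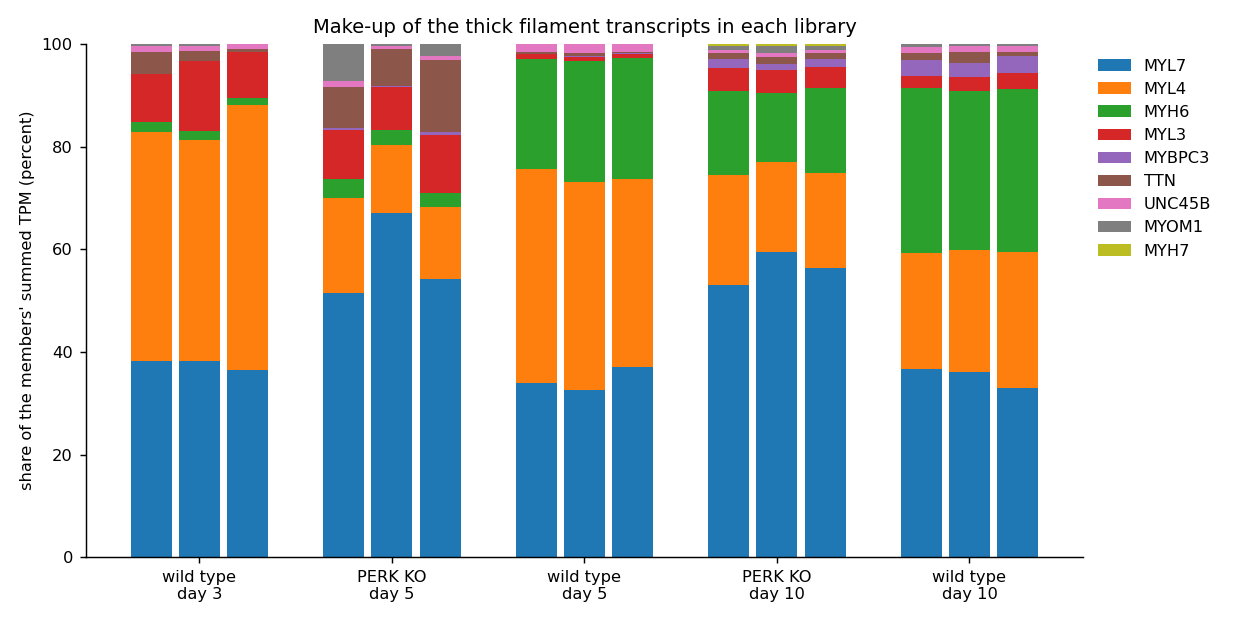
Share of the members' summed TPM held by each member, in percent, with 1 bar per library in wild type at day 3 and in PERK KO and wild type at days 5 and 10. MYH6, in green, holds 13.5% to 16.4% in PERK KO at day 10 and 31.0% to 32.1% in wild type; MYL2 is under the width of a line.

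The shares of the ventricular chains MYH7 and MYL3 in their pairs were higher in each PERK KO library than in each wild-type library at day 10. At day 10 MYH7 made 2.40%, 2.89% and 2.55% of MYH6 plus MYH7 TPM in PERK KO, against 0.293%, 0.259% and 0.260% in wild type. MYL3 made 17.2%, 20.6% and 18.6% of MYL3 plus MYL4 TPM in PERK KO at day 10, against 9.65%, 10.2% and 10.7% in wild type. Day 5 shares of MYL3 were 33.99%, 38.8% and 44.5% in PERK KO, on 23 to 30 counts over the pair, against 2.05%, 1.98% and 1.74% in wild type. None of these groups overlapped. The exact two-sided permutation test gave p = 0.1 for each, the smallest that 3 libraries against 3 allow, and 0.178 after BH adjustment over 16 comparisons, so no share passed the threshold. In wild type the MYL3 share was 18.7% at day 3, 1.92% at day 5 and 10.2% at day 10. MYH7 shares at day 5 in PERK KO rested on 2 counts of MYH7 and ranged over 0% to 1.82%. The MYL2 share of MYL2 plus MYL7 was 0% in PERK KO and 0.00563% in wild type at day 10.

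**Figure D4:**
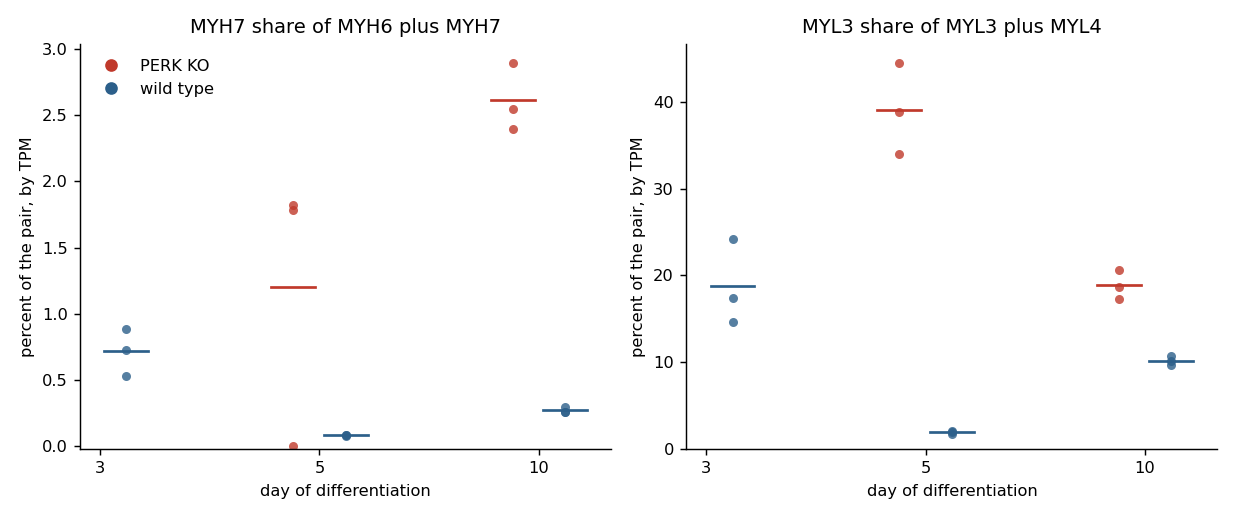
Share of MYH7 in MYH6 plus MYH7 (left) and of MYL3 in MYL3 plus MYL4 (right) by TPM, in percent, at days 3, 5 and 10; points are libraries, bars are means of 3, and groups with under 20 counts over the pair in a library are left out. At day 10 the PERK KO libraries lie at 2.40% to 2.89% for MYH7, above 0.259% to 0.293% in wild type.

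Set against TNNT2, the thin filament gene of cardiac troponin T, the members differed between genotypes by uneven amounts. TNNT2 itself had 28.8, 9.22 and 33.4 CPM in PERK KO at day 10, against 1736, 1742 and 2031 CPM in wild type. Per TNNT2 TPM, MYH6 stood at 0.963, 0.827 and 0.935 in PERK KO, against 0.641, 0.722 and 0.679 in wild type, a ratio of means of 1.34. MYBPC3 and UNC45B had ratios of 1.37 and 1.43, the smallest after that of MYH6. MYL7 stood at 3.14, 3.65 and 3.21 in PERK KO, against 0.735, 0.841 and 0.706 in wild type, a ratio of 4.38. MYL3 had a ratio of 4.38 too, MYOM1 7.08 and MYH7 13.2. At day 5 the ratios lay on both sides of 1. MYH6 had 0.0551 TPM per TNNT2 TPM in PERK KO and 1.36 in wild type, a ratio of 0.0406, and MYL4 had a ratio of 0.111, UNC45B 0.152 and MYL7 0.503. MYBPC3 (0.689) and MYH7 (0.728, on 2 PERK KO counts) were nearer to 1, while MYL3 (3.49), TTN (6.11) and MYOM1 (28.9) had more per TNNT2 in PERK KO, as every tested member did at day 10. The PERK KO libraries of MYOM1 at day 5 were widely spread, at 0.122, 0.0101 and 0.0269 per TNNT2 TPM. These ratios were not tested, and each is relative to 1 gene that itself differed.

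**Figure D5:**
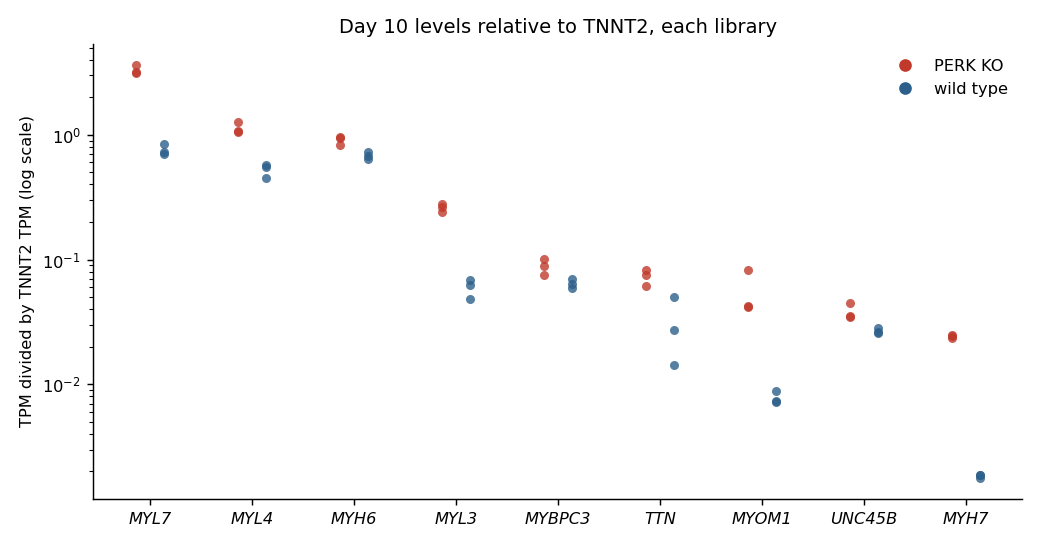
TPM of each member divided by the TPM of TNNT2 in the same library at day 10, on a log scale, with PERK KO in red on the left and wild type in blue on the right of each gene. MYH7 lies near 0.0242 in PERK KO and 0.00184 in wild type, the widest gap, and MYH6 lies near 0.909 and 0.681.

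Before day 3 the members were low in both genotypes and few were called. At day 0 MYL7 was higher in PERK KO, with 1.54, 4.69 and 1.23 CPM, against 0.263, 0.453 and 0.140 CPM in wild type (log2 fold change 2.98 ± 0.68, edgeR BH adjusted p = 0.002). It was 1 of 9 members called higher, where 12.5% of all genes were, and none was lower, where 8.64% were. PERK KO replicate 2, the library with short transcripts, was the highest, and without it the log2 fold change was 2.23 (adjusted p = 0.0342). When the fit held just the 6 libraries of day 0 the call ended (3.04, adjusted p = 0.07, by edgeR). At day 1 the sign was the other way, with 0.339, 0.0611 and 0.218 CPM in PERK KO, against 1.01, 1.31 and 1.01 CPM in wild type (log2 fold change -2.36 ± 0.73, edgeR BH adjusted p = 0.0244). That call held in 3 of 6 fits without 1 library; it ended without wild-type replicate 2 (adjusted p = 0.0685), PERK KO replicate 2 (adjusted p = 0.103) or PERK KO replicate 3 (adjusted p = 0.0814).

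TTN and the light chains showed the other early differences. TTN had 14.9, 13.6 and 16.3 CPM in PERK KO at day 1, against 41.6, 54.4 and 67.3 CPM in wild type (log2 fold change -1.86 ± 0.48, edgeR BH adjusted p = 0.00672), so 2 of 9 members were lower at day 1 (7.72% of all genes) and none higher (8.11%). At day 2 MYL3, MYL7 and MYOM1 were lower in PERK KO (log2 fold changes -3.11 ± 0.70, -1.47 ± 0.52 and -1.60 ± 0.39), 3 of 9 members where 21.7% of all genes were lower. The MYL7 call at day 2 ended without wild-type day 2 replicate 3 (-1.24, edgeR BH adjusted p = 0.114). It also ended without PERK KO day 2 replicate 1 (adjusted p = 0.0843) or replicate 3 (adjusted p = 0.0753). The MYOM1 call at day 2 ended with a transcript length offset (-0.98, edgeR BH adjusted p = 0.172). MYL4 was not called at day 2 (-2.02, edgeR BH adjusted p = 0.0628). It was called with no filter (edgeR BH adjusted p = 0.000483) and with DESeq2 in place of edgeR (adjusted p = 0.0173). UNC45B was called higher at day 2 (1 of 9, against 20.9% of all genes) on 8 counts in PERK KO and 0 in wild type, at least 2.53-fold when 3 counts are allowed to the wild-type group. That call (edgeR BH adjusted p = 0.0494) ended in 5 of 6 fits without 1 library.

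Most partners of the thick filament were lower in PERK KO too. Of 21 tested genes of the M-band, titin binding and myosin assembly, 19 were lower and 2 higher in PERK KO at day 10, where 34% and 33.3% of all genes were, with a median log2 fold change of -3.40. At day 5, 16 were lower and 2 higher, where 30.5% and 28.6% of all genes were. RBM20, the splicing factor that sets titin isoforms, had 3.79 ± 1.10 CPM in PERK KO at day 10 and 124 ± 15.2 CPM in wild type (log2 fold change -5.02 ± 0.25). CKM, the creatine kinase of the M-band, had 2.56 ± 1.23 CPM in PERK KO and 170.2 ± 33.8 CPM in wild type (-6.05 ± 0.35). TRIM63, a ubiquitin ligase that binds titin, had 0.252 ± 0.150 CPM in PERK KO and 55.5 ± 4.08 CPM in wild type (-7.78 ± 0.44; SD, n = 3 each). FHL2, a LIM protein that binds titin, was lower by -3.30 ± 0.18 on the log2 scale. SMYD1, a myosin methyltransferase and chaperone partner, was lower by -10.81 ± 0.59 at day 5. The 2 higher partners at day 10 were the chaperones HSP90AA1 (3.09, edgeR BH adjusted p = 9.75e-08) and HSP90AB1 (0.34, adjusted p = 0.0116), the client-folding partners of UNC45 proteins, named here after their values were seen.

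Of 19 cardiac regulators, 15 were lower and 3 higher in PERK KO at day 10, where 34% and 33.3% of all genes were, with a median log2 fold change of -3.03. At day 5, 15 were lower and 3 higher, where 30.5% and 28.6% of all genes were. GATA4, a GATA factor of the early heart, had 11.8 ± 4.82 CPM in PERK KO at day 10 and 514 ± 169.8 CPM in wild type (SD, n = 3 each), a log2 fold change of -5.44 ± 0.29 (edgeR BH adjusted p = 3.48e-16). IRX4, a ventricular homeobox factor, was lower by -7.34 ± 0.38 on the log2 scale, and HEY2, a ventricular repressor, by -3.03 ± 0.17. THRA, a thyroid hormone receptor, was lower by -2.64 ± 0.15. At day 5 HAND2, NKX2-5 and TBX20, factors of the early heart, were lower by -11.42, -8.84 and -8.89. The 3 higher at day 10 were THRB, NR2F2 and TEAD1 (3.38, 1.86 and 1.44), named after their values were seen.

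Of the 2 lists of other myosin genes, the striated paralogs had counts near those of all genes at day 10. Of 8 tested striated paralogs out of 15, 3 were higher and 3 lower in PERK KO at day 10, where 33.3% and 34% of all genes were. MYH7B, the relative of MYH7, had 1.47, 1.19 and 2.03 CPM in PERK KO, against 80.5, 70.4 and 96.1 CPM in wild type (log2 fold change -5.70 ± 0.32, edgeR BH adjusted p = 1.02e-15). MYBPC2, the protein C of fast skeletal muscle, had 8.97, 10.7 and 7.76 CPM in PERK KO, against 0.672, 1.35 and 0.894 CPM in wild type (3.26 ± 0.25, adjusted p = 1.36e-12, by edgeR). MYBPC2 thus differed from wild type in the opposite direction to MYBPC3. Within PERK KO their levels overlapped, with MYBPC3 at 14.3, 2.80 and 13.6 CPM. Of 10 non-muscle and smooth muscle genes 6 were higher and 2 lower at day 10, where 33.3% and 34% of all genes were, with a median log2 fold change of 0.37. MYLK, the smooth muscle light chain kinase, was higher by 2.46 ± 0.22, MYH10, a non-muscle heavy chain, by 1.19 ± 0.23, and MYL9, a smooth muscle light chain, was lower (-2.56 ± 0.24).

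The cells behind these libraries differed in other markers too. At day 10 the 7 cardiomyocyte markers, none of them a member, summed to 61.4 to 191 CPM in PERK KO and 6308 to 8499 CPM in wild type, and 7 of 7 were lower. The 6 stem cell markers summed to 1838 to 1950 CPM in PERK KO and 212 to 268 CPM in wild type. LIN28A made most of that sum, with 1306 ± 7.48 CPM in PERK KO and 187 ± 29.2 CPM in wild type (SD, n = 3 each), and SOX2 had 411 ± 53.6 CPM in PERK KO and 0.497 ± 0.120 CPM in wild type. POU5F1 averaged 20.2 CPM in PERK KO and 2.53 CPM in wild type, and NANOG 0.130 CPM in PERK KO and 0.0747 CPM in wild type. Of the 6, 4 were higher and 1 lower, TDGF1 at 1.87 CPM in PERK KO and 15.4 CPM in wild type. The neural markers summed to 699 to 838 CPM in PERK KO and 24.4 to 25.7 CPM in wild type, where SOX1 was at 0. Fibroblast and epicardial markers summed to 132 to 177 CPM in PERK KO and 2182 to 3578 CPM in wild type, and endoderm markers to 311 to 525 CPM in PERK KO and 1333 to 2062 CPM in wild type. Endothelial markers summed to 22.8 to 43.9 CPM in PERK KO and 479 to 611 CPM in wild type, and smooth muscle markers to 116 to 129.6 CPM in PERK KO and 343 to 461 CPM in wild type. The skeletal muscle markers summed to 113 to 135 CPM in PERK KO and 339.5 to 469.7 CPM in wild type, with MYOD1 at 0 counts in both, MYF5 at 0 in PERK KO and MYF6 at 0 in wild type. The sum was mostly ACTN3, at 106 CPM in PERK KO and 236 CPM in wild type, and CKM, also a partner above. Of 5 tested, 3 were higher and 2 lower, and PAX7 averaged 15.1 CPM in PERK KO and 0.265 CPM in wild type. The presomitic mesoderm markers were at 8.58 to 10.2 CPM in PERK KO and 6.41 to 9.95 CPM in wild type, where MSGN1 was at 0. The single markers were picked for mention after their values were seen. The part of these cells in the members' differences was not tested.

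Across the 12 group means the members resembled one another and a few other genes. Pearson's r of log2(CPM + 1) over the 36 pairs of tested members ran from 0.685, between TTN and MYOM1, to 0.993, with a median of 0.915. Outside the set, MYH6 was most like AC104083.1 (r = 0.991), SMYD1 (0.990) and MAB21L2 (0.988). UNC45B was most like TRIM55 (0.998), NKX2-6 (0.997) and HAND2 (0.995), and MYL7 was most like EFNA1 (0.985), TRIM55 (0.982) and METTL24 (0.981). MYH7 was most like TECRL (0.996), SLC39A5 (0.993) and VEGFA (0.991), and TTN, at lower values, most like SH3GLB1 (0.960), SH3RF2 (0.952) and IL6ST (0.951). The 12 points share their libraries and time course, and the values are descriptions. How many of all genes reach such values was not counted.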

How the data were processed

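RNA-seq of 36 libraries was analysed from the deposited RSEM expected counts per gene, per the file headers, which were rounded to whole numbers (6.53% to 9.43% of values were fractional). Per the submitters' processing notes the authors used CASAVA, FastQC, STAR and RSEM on GRCh38, with versions not given in the sources used here. TPM and the abundance-weighted transcript lengths were taken as the authors deposited them in the same files; TPM was used for levels between genes and for shares of paralog pairs. The sample files and the series matrix agreed exactly.

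After filterByExpr and TMM scaling, a quasi-likelihood model of the 12 groups was run in R 4.3.3 with edgeR 4.0.16, which calls limma 3.58.1; it left 24 residual degrees of freedom, and BH adjustment covered 19772 genes within each comparison. The approximate SE was obtained as |log2 fold change| over √F. Shares were compared by exact permutation of 3 libraries against 3, where each library had at least 20 counts over the pair. Alternatives were RLE scaling, DESeq2 1.42.0, no filter, a stricter filter (1 CPM in 3 libraries), only the compared libraries, replicate blocks, an effective length offset, the series matrix, leaving out libraries, and, for shares, expected counts or another minimum. The fitting code was tested on simulated data. Tables and figures used Python 3.11.15, pandas 2.3.3, numpy 2.4.6, scipy 1.17.1 and matplotlib 3.10.9. Counting intervals are exact at 95%, and they and the floor of 3 counts cover counting error only.

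The members and the gene lists were chosen with earlier results of these data known. All 10 members were described in every group; from each list the 4 genes with the smallest p per main comparison could be named, and the 3 genes most like 5 of the members by correlation of group means.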

Additional observations from a re-analysis of the deposited data

Results flagged for a closer look

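The change in expression between 2 days differed between PERK KO and wild type for most members, by edgeR's test of the difference itself with BH adjustment. From day 0 to day 10 the rise in PERK KO was smaller by -7.02 (MYL7), -6.08 (UNC45B), -5.90 (MYBPC3), -4.68 (MYOM1), -4.64 (MYH6) and -2.90 (TTN) on the log2 scale. These were 6 of the 7 members called lower, where 29.4% of all genes were. For MYL3, the 7th, the fitted value was -8.70, which depends on the prior count, since wild type had 0 counts at day 0. The MYH6 call ended without PERK KO day 0 replicate 1 (adjusted p = 0.0933) or replicate 2 (adjusted p = 0.0895), and its value was -5.75 without wild-type day 0 replicate 3. The MYBPC3 call ended without PERK KO day 0 replicate 1 (-5.18, adjusted p = 0.0516), and the value was -6.49 without wild-type day 0 replicate 2. MYL7 was at -6.24 without PERK KO day 0 replicate 2 and UNC45B at -5.49 without PERK KO day 0 replicate 3. The value of MYL7 includes its higher level in PERK KO at day 0 (log2 fold change 2.98), and its difference at day 10 was -4.03. MYL4 and MYH7 were not called, with 1 and 0 counts in wild type and 2 and 0 counts in PERK KO at day 0.

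From day 5 to day 10 the change in PERK KO was larger than in wild type for MYH6 (5.31), MYL4 (4.45), UNC45B (3.77), MYH7 (3.74) and MYL7 (3.29), and smaller for MYOM1 (-1.58).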

How the results depend on the processing

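The calls of all 9 tested members at days 5 and 10 between genotypes were unchanged under every alternative run, with 9 lower in each fit that left out 1 library. Before day 5 the counts moved. Members higher in PERK KO at day 0 (1) were 2 with no filter, a replicate block in all libraries, a length offset or DESeq2, and 0 with only the compared libraries or a replicate block within them; lower ones (0) were 1 with the length offset. The 1 member higher at day 2 was 0 without both libraries that stood apart, with only the compared libraries or with a replicate block within them.

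Against day 0, members lower in PERK KO at day 1 (2) were 1, and at day 2 (1) and higher at day 3 (1) were 0, under the same 3 settings. Without a filter 1 was higher at day 1, 2 lower at day 2, and 2 higher and 2 lower at day 3. DESeq2 gave 2 lower at day 2 and 1 at day 3, as did the length offset (1) and the fit without both libraries (1) at day 3. The member lower at day 5 was 0 with the stricter filter, the length offset, the compared libraries or their block. In wild type, members higher at day 1 (3) were 1 with the length offset, and lower at day 2 (1) were 2 with no filter, the block in all libraries, the length offset or DESeq2, and 0 without both libraries, with the compared libraries or their block. The MYOM1 interaction from day 5 to 10 (1 lower) was 0 with the length offset or the compared libraries.

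Leaving out 1 library gave 1 to 2 members lower at day 1, 2 to 4 lower and 0 to 1 higher at day 2 and 7 to 8 lower at day 3 between genotypes. Against day 0 it gave 1 to 2 lower at day 1, and 0 to 1 for the other counts of 1 in PERK KO and in wild type, 1 to 2 higher at wild-type day 1, and, at day 10 against day 5, 4 to 5 higher in wild type and 8 to 9 in PERK KO. The differences in change gave 5 to 7 lower from day 0 to day 10, and 5 to 6 higher and 0 to 1 lower from day 5 to day 10.

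Signs turned for uncalled values only: TTN at day 0 was 0.25 without both libraries; with the length offset MYL4 at day 1 was 0.0337, MYOM1 at day 1 -0.021, TTN at day 2 -0.32 and the TTN interaction from day 5 to 10 -1.27; the MYL3 interaction was 0.011 with the stricter filter, 0.0104 with the compared libraries and 0.437 with the length offset. The cause was not tested. Over all genes the 4177 calls at day 0 were 304 with only the compared libraries and 0 with their block, the 3129 at day 1 were 4931, 7355 and 7278 without both libraries, with the compared libraries and with their block, and the 8427 at day 2 were 5308 with their block.

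Whether replicate numbers pair the libraries was not settled. Deviations from group means correlated by -0.27 to 0.59 over 18 same-numbered pairs, with 4 over 0.1 and 0 days with every pair over it. The highest were at day 3, at 0.59 for replicate 1 and 0.53 for replicate 3, with -0.03 for replicate 2. Between genotypes the replicate block changed the calls of MYL3 at day 0 (adjusted p = 0.049, block in all libraries), MYL4 at day 2 (-2.02, adjusted p = 0.0454, likewise) and MYL7 at day 0 (3.00, adjusted p = 0.163, within the day). UNC45B at day 2 and MYBPC3 at day 3 were not tested in the compared libraries alone, with or without the block. No other call between genotypes changed under it. Depth limits the members under about 1 CPM, which include MYL2 throughout. Before day 3 these were also MYH6, MYH7, MYL3, MYL4, MYBPC3 and UNC45B. MYL7 was under it in wild type at day 0 (0.286 CPM) and in PERK KO at days 1 and 2 (0.206 and 0.811 CPM). In PERK KO several members stayed under it at days 3 and 5, such as MYBPC3 at 0.0157 and 0.110 CPM. No share could pass with 3 libraries a group.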
